A study of Mus musculus with 2 samples.

Results

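The receptors through which incretins, fatty acids, nerves and neighbouring islet cells act on insulin secretion were examined in MIN6, a line of mouse insulinoma cells (strain C57BL/6 per the labels) that secretes insulin and stands in for beta cells. The 10 genes were chosen by name as Glp1r, Gipr, Gcgr, Ffar1, Gpr119, Adra2a, Chrm3, Sstr3, Galr1 and Casr, out of the 21542 genes in the deposited table of RNA sequencing values. Of these, 8 had a row. Gcgr, the glucagon receptor, and Gpr119, a receptor for lipid amides that acts through Gs, had none and were not measured. Cells received, by Lipofectamine 2000, either a vector that expresses the glucocorticoid receptor (GR, gene Nr3c1) or a control vector. Each group was 1 library, so the differences below lack any check between replicates. For the GR cDNA (form and species), the hours until harvest and glucocorticoid treatment, the sources used here hold no entry.

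Insulin secretion set off by glucose is tuned by G protein-coupled receptors. Receptors that couple to Gs raise cyclic AMP, those that couple to Gq raise inositol trisphosphate and calcium, and both add to the release of insulin, while receptors that couple to Gi or Go lower cyclic AMP and restrain it. Glp1r and Gipr, receptors of the gut hormones GLP-1 and GIP, belong to the Gs class. Ffar1 (GPR40, long-chain fatty acids) and Chrm3 (acetylcholine) belong to the Gq class, Adra2a (noradrenaline and adrenaline), Sstr3 (somatostatin) and Galr1 (galanin) to the Gi/o class, and Casr senses extracellular calcium.

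The GR library held 18525668 reads over genes and the control library 18537326. The targeted gene Nr3c1 had 5202 reads with the GR vector, against 2645 with the control vector (fold 1.97, 95% interval 1.88 to 2.07). All 9 beta cell markers looked up were read in both libraries, with 766683 summed reads in the GR library and 813213 in the control library. Ins2 had 373033 reads in the GR library and 407986 in the control library, and the fold lay above 1 for 4 of the 9 and below for 5. Among markers of other cells, Gcg of alpha cells had 623 and 537 reads and Sst of delta cells 114 and 92 in the same order, Ptprc of leukocytes had 1 and 2, and Hhex, Ppy, Cpa1, Prss2, Krt19 and Sox10 had no row. Krt7 of duct cells had 2166 reads in the GR library and 2429 in the control library. Of the 3 neuronal markers, Snap25 had 1808 and 1809 reads, Tubb3 1065 and 1232, and Rbfox3 16 and 16, in the same order. Fewer cells of a type and less RNA per cell cannot be told apart in such bulk samples, and the part of other cell types in the values below was not tested.

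In the 2 libraries 7 of the 8 measured receptors had folds between 0.928 and 1.04, and Gipr stood below them at 0.840. Median log2 fold over the 8 was 0.01, beside 0.0037 over the 12119 genes that averaged 50 or more reads. Of the receptors, 5 lay above 0 and 3 below. No receptor reached a fold of 1.2 in either direction, against 7.99% of those 12119 genes (4.03% higher, 3.96% lower), and without a minimum of reads 37.5% of all 21542 genes did (18.4% higher, 19.1% lower). The 95% counting interval of the fold left out 1 for 2 of the 8 receptors, Ffar1 on the higher and Gipr on the lower side, against 18.7% of the 12119 genes (10.3% higher, 8.38% lower). In the authors' deposited table, none of the 8 receptors had an adjusted p under 0.05, against 0.0186% of all genes (0.00928% higher, 0.00928% lower). In the authors' deposited table, 0 receptors had an unadjusted p under 0.05, and the lowest was 0.547, for Gipr. Such p-values came out the same from an exact test in edgeR whose dispersion was preset at 0.04, and they hold no spread measured between replicates. Folds and intervals from single libraries describe those libraries and not the treatments as such.

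**Figure D1:**
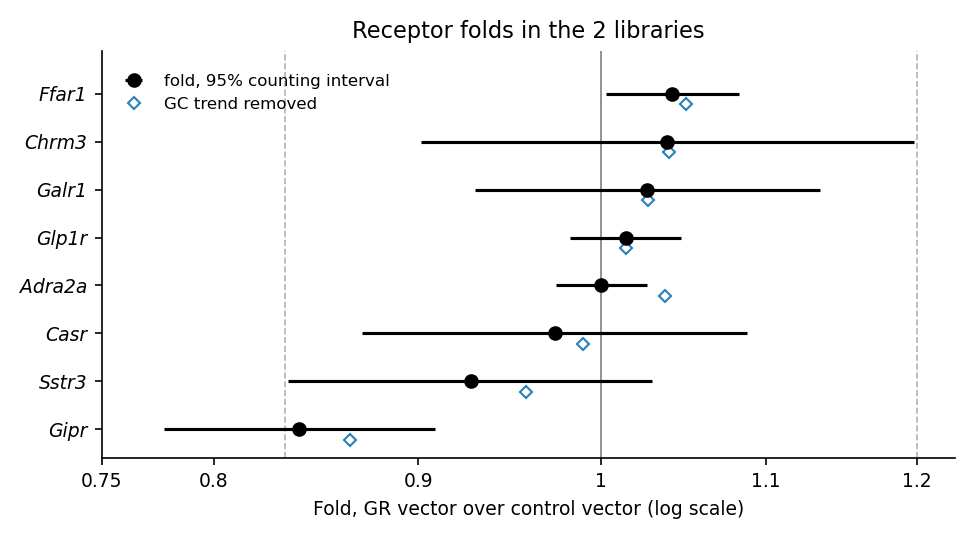
Fold of each measured receptor in the GR library over the control library (log axis; points with 95% Clopper-Pearson counting intervals), with the value after removal of the trend of transcript GC content (open diamonds) and the 1.2-fold limits (dashed). Gipr is lowest at 0.840 and the other 7 lie between 0.928 and 1.04, with intervals of Sstr3, Casr and Chrm3 that overlap that of Gipr.

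The incretin receptors did not share a fold, with Gipr below Glp1r. Glp1r (ENSMUSG00000024027, chromosome 17, 30901867 to 30936510, plus strand in the deposited table), which potentiates secretion when GLP-1 is bound, had 7581 reads with the GR vector and 7495 with the control vector. These values lay close together, and the fold was 1.01 (95% interval 0.982 to 1.05). Gipr (ENSMUSG00000030406, chromosome 7, 19156061 to 19166127, minus strand), the receptor of GIP, had 1179 reads with the GR vector and 1407 with the control vector. Its value in the GR library was the lower one, with a fold of 0.840 (95% interval 0.777 to 0.909). That interval overlapped those of Sstr3, Casr and Chrm3 and lay below those of Glp1r, Ffar1, Adra2a and Galr1. The authors' deposited table gives Gipr -0.25 as its log2 fold change, and its adjusted p there is 1. For each read of Gipr there were 6.43 reads of Glp1r in the GR library (95% interval 6.05 to 6.84) and 5.33 in the control library (5.03 to 5.64), and these intervals did not overlap.

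Genes read as deeply as Gipr seldom lay so low. Of 2930 other genes whose mean of reads was within 1.5 times that of Gipr, 8 (0.273%) had a fold as low or lower, and 15 (0.512%) lay as far from 1 in either direction. For Sstr3, the next lowest receptor, 14.8% of 3042 such genes lay as low or lower. For Ffar1, the highest, 20.1% of 819 such genes lay as high or higher. Gipr is singled out here as the lowest receptor, so its share is that of a picked extreme. These shares use folds with the GC trend left in, describe the 2 libraries and carry no test.

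**Figure D2:**
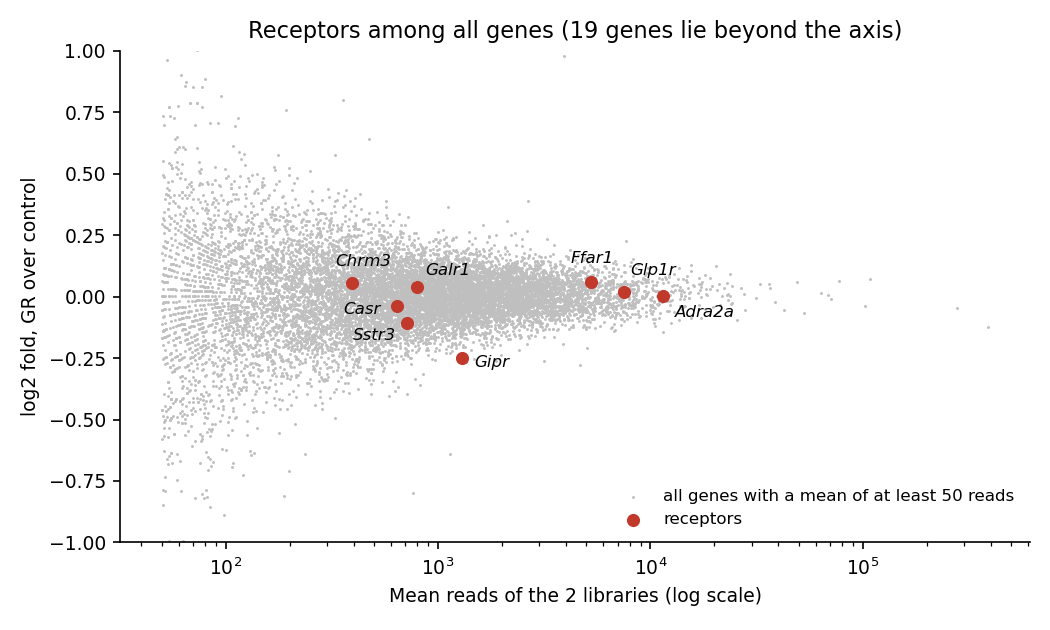
Log2 fold of the GR library over the control library against the mean reads of the libraries (log axis) for all 12119 genes that averaged 50 or more reads (grey; 19 lie beyond the axis) and the 8 receptors (red). Gipr lies at the lower edge of the genes with like numbers of reads, and the other 7 receptors lie inside the cloud.

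Folds moved with the GC content of transcripts over all genes. The median log2 fold was 0.07 over the 1538 genes of at most 42% GC and -0.06 over the 1170 genes of more than 58%. Gipr has a transcript GC content of 56.1%, and with that trend removed its fold was 0.865. Of the 14 other genes that averaged 50 or more reads and start within 150 kb of it, with a median GC content of 56.1%, 13 lay below a fold of 1 and 1 above. Their median log2 fold was -0.09, and -0.05 with the GC trend removed. Over all 12119 genes at that depth 5933 lay below 1, and the median log2 fold of the 2111 genes of 54 to 58% GC was -0.04. This window was chosen after the values were seen. Fbxo46, an F-box protein gene, had 287 reads in the GR library and 373 in the control library (fold 0.772, 95% interval 0.659 to 0.902), and Dmpk, the kinase gene whose repeat expands in human myotonic dystrophy, had 1709 and 1960 in the same order (0.874, 0.819 to 0.934). Qpctl, which encodes a glutaminyl cyclase, was the exception, with 812 reads in the GR library and 700 in the control library (1.16, 1.05 to 1.29). In the same window around other receptors, the genes below 1 were 5 of 10 for Ffar1, 3 of 4 for Sstr3 and 2 of 2 for Galr1. They were 1 of 2 for Adra2a and 1 of 1 for Casr, and Glp1r and Chrm3 had no such neighbour. The part of the region and of GC content in the value of Gipr was not tested further.

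**Figure D3:**
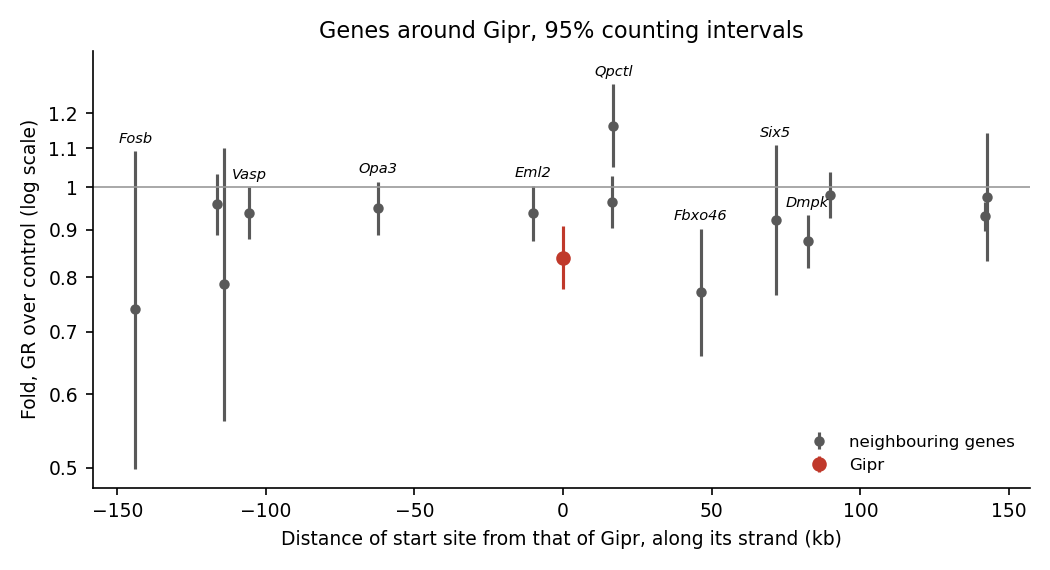
Fold of the GR library over the control library (log axis, 95% counting intervals) for Gipr (red) and the 14 genes around it that averaged 50 or more reads (grey), by the distance of their start sites in kb along the strand of Gipr. Of the neighbours 13 lie below 1, and Qpctl at 1.16 lies above, while 5933 of all 12119 genes at that depth lie below 1.

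No exon of the 8 receptors overlaps an exon of another gene in GENCODE M21, on either strand. At most 1.35% of a receptor's 31-mers, for Ffar1, occur in another annotated gene, and 0% of those of Gipr.

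Among the receptors of the Gq class, Ffar1 had the highest fold of all 8. This receptor of long-chain fatty acids (ENSMUSG00000044453, chromosome 7, 30857390 to 30861564, minus strand) is encoded in 1 exon and had 5350 reads with the GR vector and 5149 with the control vector. The value with the GR vector was slightly the higher one, with a fold of 1.04 (95% interval 1.00 to 1.08). Its lower bound, 1.003, lay next to 1. With DESeq2 size factors in place of TMM, Gipr was the 1 receptor whose interval left out 1, against 18.5% of all genes at that depth. The same held with the 100 most read genes left out of the library size (18.5%) and with a 99% interval (9.24%). The neighbouring genes Ffar3 and Ffar2, which encode receptors of short-chain fatty acids, had 588 and 654 reads with the GR vector and 574 and 673 with the control vector, and their folds of 1.03 and 0.975 had intervals that held 1. Chrm3, the muscarinic receptor gene (ENSMUSG00000046159, chromosome 13, 9875486 to 10360847, minus strand), had 402 reads with the GR vector and 388 with the control vector. Counting error alone allowed a fold from 0.902 to 1.2 around its value of 1.04.

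The receptors that restrain secretion showed no common direction. Adra2a (ENSMUSG00000033717, chromosome 19, 54045182 to 54048982, plus strand), the alpha-2A adrenergic receptor, had 11408 reads with the GR vector and 11437 with the control vector, the most of any receptor here. Its fold was 1.00 (95% interval 0.975 to 1.03), and 1.04 with the GC trend removed, and its transcript has the highest GC content of the 8 at 58.6%. Sstr3 (ENSMUSG00000044933, chromosome 15, 78537008 to 78544685, minus strand), a somatostatin receptor of the primary cilium, had 690 reads with the GR vector and 746 with the control vector (fold 0.928, 95% interval 0.835 to 1.03). Galr1 (ENSMUSG00000024553, chromosome 18, 82392496 to 82406777, minus strand), a galanin receptor, had 804 reads with the GR vector and 785 with the control vector (fold 1.03, 0.930 to 1.13). The intervals of all 3 held 1. Casr (ENSMUSG00000051980, chromosome 16, 36493696 to 36562141, minus strand), the calcium-sensing receptor, had 633 reads with the GR vector and 652 with the control vector, and its fold of 0.974 (0.871 to 1.09) also could not be set apart from 1 at this depth.

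The levels of the receptors spanned a wide range, set here per length as RPKM (reads scaled by gene length and by library total). With the gene lengths of the deposited table, Glp1r came first, at 276 RPKM in the GR library and 273 in the control library, and 65 genes in the GR library and 64 in the control library stood above it. Adra2a followed at 162 RPKM in each library and Ffar1 at 69.2 in the GR library and 66.5 in the control library. Gipr had 18.3 and 21.8 RPKM, Galr1 15.1 and 14.7, and Sstr3 8.62 and 9.32, each in the GR library and then the control library. Casr at 7.24 and 7.45 RPKM and Chrm3 at 3.47 and 3.35 came last, in the same order of libraries. No 2 neighbours in that sequence had overlapping 95% counting intervals in either library. The top of it depends on the gene length used. The deposited length of Glp1r is 1480 bases, while its exons in GENCODE M21 cover 5811. The same reads over the longer length give 70.4 RPKM in the GR library and 69.6 in the control library. With M21 lengths Adra2a came first at 127 RPKM in the GR library and 128 in the control library. The intervals of Glp1r and Ffar1 then overlapped. Reads were not recounted on the M21 exons. If they were counted only on the shorter deposited exons, the M21 value of Glp1r is too low. The order at the top is therefore not settled here. Glp1r, Adra2a and Galr1 have other coordinates in that annotation than in the deposited table.

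**Figure D4:**
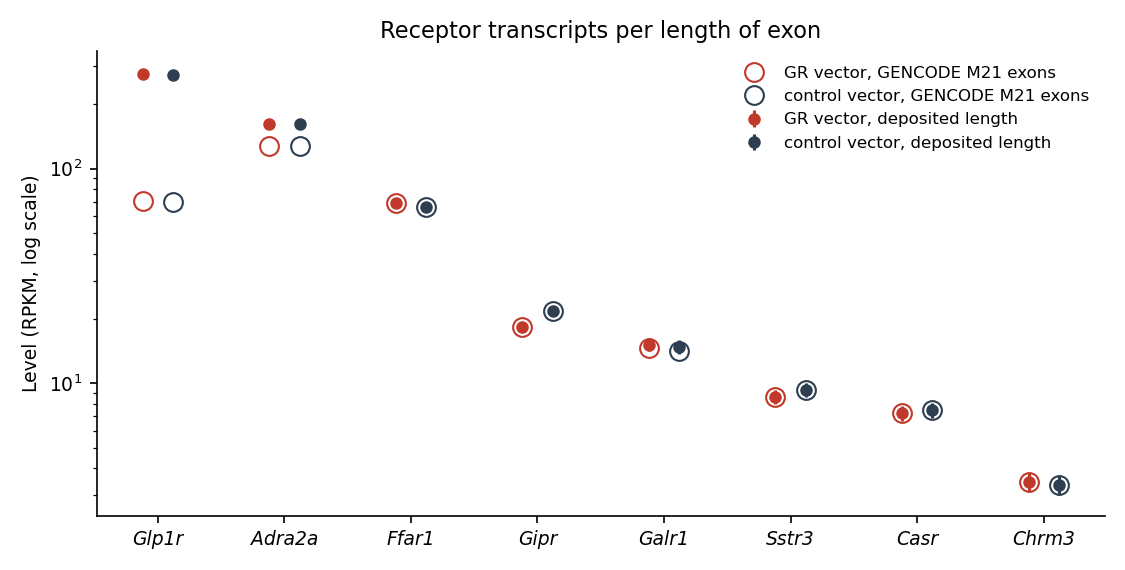
Level of each measured receptor in RPKM (log axis) in the GR library (red) and the control library (dark blue), with the deposited gene length (filled, 95% counting intervals) and with the exons of GENCODE M21 (open). Glp1r moves from first place at 276 RPKM in the GR library to a level next to Ffar1, while the libraries lie close together for each receptor. Open points use the same reads, which were not recounted on the M21 exons.

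Within families the receptors described here were not always the leading subtype. Adra2a made up 99.9% of the summed RPKM of the alpha-2 adrenergic receptor genes in each library, with Adra2c at 5 reads in the GR library and 12 in the control library and Adra2b at 2 and 1. Ffar1 made up 68.8% of the free fatty acid receptor genes in the GR library and 68.4% in the control library. Sstr3 took 58.8% of the somatostatin receptor genes in the GR library and 56.2% in the control library. Another subtype, Sstr5, took 39.1% and 40.8% in that order, Sstr2 had 12 and 20 reads, and Sstr1 and Sstr4 had no row. Chrm4, a Gi-coupled muscarinic receptor, exceeded Chrm3 per length (deposited lengths of 1440 and 6253 bases for Chrm4 and Chrm3), and Chrm3 held 30.8% of the family in the GR library and 31% in the control library. By reads the order was the opposite, with 1.93 reads of Chrm3 for each of Chrm4 in the GR library (95% interval 1.63 to 2.30) and 1.95 in the control library (1.64 to 2.32). Galr3 likewise exceeded Galr1, which held 22% of the galanin receptor genes in the GR library and 21.1% in the control library, but 27.7% of the 31-mers of Galr3 also occur in the exons of other genes and its count is uncertain.

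The 250 bases before the start sites were searched for the letters of the element that GR is known to bind, since the vector encodes that factor. RefSeq start sites on GRCm38.p6 were searched for 8 of the 10 receptors, with 9 start sites in all, and the windows ran on to 50 bases after the start. Gipr had no entry in the source used and Galr1 was left out, so neither was searched. The full palindrome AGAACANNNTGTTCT was in 0 of the 9 windows and in 0.00913% of 32851 RefSeq windows of 300 bases. A looser form, GNACANNNTGTNC, was in 1 window, that of the unmeasured Gpr119, and in 0.475% of all windows. It can overlap the half-site but in that window lay upstream of it and apart from it. The half-site AGAACA (on either strand, so also TGTTCT) was in the windows of Gpr119 and of the second start of Sstr3, but not of its first start, and in 19.0% of all windows. Such a match is a description of letters, not a site. The upstream sequences of 3 receptors are shown, with the half-site in capitals where there is one, namely Sstr3 at its second start (chr15:78541407-78541656, minus strand; the match begins at -20), the highest receptor by fold, Ffar1 (chr7:30861471-30861720, minus strand), and the most read one, Adra2a (chr19:54045009-54045258, plus strand), each 5′ to 3′.
Sstr3: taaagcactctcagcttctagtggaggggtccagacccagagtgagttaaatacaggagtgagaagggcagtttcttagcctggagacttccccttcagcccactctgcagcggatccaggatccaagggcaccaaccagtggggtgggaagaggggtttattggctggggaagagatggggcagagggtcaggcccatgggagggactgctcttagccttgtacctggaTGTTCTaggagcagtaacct
Ffar1: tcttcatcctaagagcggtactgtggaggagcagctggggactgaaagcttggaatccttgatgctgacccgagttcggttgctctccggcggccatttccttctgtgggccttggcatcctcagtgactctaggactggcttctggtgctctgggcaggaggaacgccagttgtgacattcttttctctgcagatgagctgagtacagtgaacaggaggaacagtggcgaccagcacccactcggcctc
Adra2a: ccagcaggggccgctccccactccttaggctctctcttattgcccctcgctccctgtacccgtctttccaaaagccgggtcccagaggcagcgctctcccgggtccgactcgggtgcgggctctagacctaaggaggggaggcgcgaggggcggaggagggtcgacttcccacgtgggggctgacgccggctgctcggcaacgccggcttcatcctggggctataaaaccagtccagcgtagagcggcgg

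The genes around these receptors in their pathway were taken as 10 lists of 169 gene symbols, of which 122 had a row and 79 averaged 50 or more reads. Adrbk1 and Adrbk2, listed symbols without a row, are other names of Grk2 and Grk3, which had one. Of the 79, 35 lay above a log2 fold of 0 and 44 below. A fold of 1.2 was reached by 4 on the higher and 1 on the lower side, together 6.33%, beside 7.99% of all genes. Counting intervals left out 1 for 6 higher and 13 lower genes, together 24.1%, beside 18.7% of all genes. These calls, like those for each list below, were made with the GC trend left in. The median log2 fold of a list ran from -0.08 for the somatostatin, galanin and class C relatives to 0.10 for the 3 class B relatives, beside 0.0037 over all genes at that depth. With no minimum of reads the class B median was -0.04, and the beta and gamma subunits had the lowest median at -0.11. None of the 10 lists held a gene with an adjusted p under 0.05 in the authors' deposited table.

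Ligand genes of these and related receptors were read at very different depths, and of the 5 that averaged 50 or more reads 1 had an interval above 1 (10.3% of all genes did) and 0 below (8.38%). Npy, which encodes neuropeptide Y, had 8148 reads in the GR library and 8385 in the control library, Cck (cholecystokinin) 2828 and 2772, and Th (tyrosine hydroxylase, the first enzyme of catecholamine synthesis) 828 and 789, all with intervals that held 1. The glucagon gene Gcg, whose precursor also contains GLP-1, had 623 reads in the GR library and 537 in the control library (fold 1.16, 95% interval 1.04 to 1.31). For Sst the fold was 1.24 (0.936 to 1.65). Gip, Gal, Galp, Vip, Pyy and Ppy had no row.

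Of the class B relatives, the hormone receptor family of Glp1r, 3 averaged 50 or more reads, 1 with an interval above 1 (10.3% of all genes) and 1 below (8.38%). Crhr1, a receptor of corticotropin-releasing hormone, had 406 reads in the GR library and 324 in the control library, with a fold of 1.26 (95% interval 1.08 to 1.46). Vipr1 and Vipr2, receptors of the peptides VIP and PACAP, had folds of 0.885 (0.796 to 0.983) and 1.07 (0.959 to 1.19). Among the 5 lipid receptor relatives that averaged 50 or more reads, none had an interval that left out 1. Lpar2 (lysophosphatidic acid) had a fold of 0.907 and Cnr1 (cannabinoids) one of 0.768 on 62 reads in the GR library and 81 in the control library, both with intervals that held 1. Below that mean, S1pr4, a receptor of sphingosine 1-phosphate, had 6 reads in the GR library and 25 in the control library. Its fold on these few reads was 0.241, with an interval that left out 1 (0.081 to 0.601). Of the adrenergic and muscarinic relatives Chrm4 alone averaged 50 or more reads, with 208 in the GR library and 199 in the control library.

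In the list of somatostatin, galanin and class C relatives, 3 of 10 genes had an interval below 1 and 0 above. Over all genes at that depth, the shares beside which these lists' counts stand were 8.38% below 1 and 10.3% above. Sstr5, a somatostatin receptor, had 290 reads in the GR library and 343 in the control library (fold 0.848, 95% interval 0.723 to 0.994). The others were Gprc5c (0.885, 0.809 to 0.969) and Gprc5b (0.888, 0.798 to 0.987), orphan receptors of class C. Gabbr2, a subunit of the GABA-B receptor, was level with 2803 reads in the GR library and 2801 in the control library. Galr2 had the highest fold there, 1.12 (0.883 to 1.43).

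G protein subunits differed by small amounts. Among 9 alpha subunits the interval lay above 1 for 1 and below 1 for 3, and among 8 beta and gamma subunits for 1 and 2, beside the same 10.3% above and 8.38% below of all genes. Gnas, which encodes the Gs alpha subunit that Glp1r and Gipr use, had 2419 reads in the GR library and 2645 in the control library (fold 0.917, 95% interval 0.868 to 0.970), and 19.9% of its 31-mers occur in overlapping or other genes. The Gi/o genes Gnai2 and Gnao1 had folds of 0.957 (0.931 to 0.985) and 0.971 (0.945 to 0.998). Gna11, of the Gq family, had one of 1.01, and Gna13 was higher at 1.07 (1.00 to 1.15). Of the beta and gamma subunits, Gng12 had 13779 reads in the GR library and 13160 in the control library (1.05, 1.03 to 1.08), Gnb2 was lower at 0.916 (0.882 to 0.951), and Gnb1 lay at 1.01 and Gnb5 at 0.889 (0.790 to 0.999). With the GC trend removed, log2 folds went from -0.063 to -0.018 for Gnai2 and from -0.042 to -0.0006 for Gnao1. Likewise Gnas went from -0.125 to -0.075 and Gna13 from 0.101 to 0.078. Gng12 went from 0.070 to 0.019, Gnb2 from -0.126 to -0.069 and Gnb5 from -0.170 to -0.159.

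Genes that end or carry on the signal were likewise near 1 for the most part. Of 12 receptor kinases, arrestins and accessory proteins, 1 had an interval below 1 (8.38% of all genes did) and 0 above (10.3%). Grk2, Grk3 and Grk6, kinases that desensitise receptors, had folds of 0.981, 0.950 and 0.933, and the interval of Grk6 lay below 1 (0.873 to 0.997). The receptor partner Ramp2 had the highest fold of that list, 1.14 (0.847 to 1.54), and 31.7% of its 31-mers are shared. RGS proteins speed the shutting off of G proteins, and of 13 measured at that depth 1 had an interval above 1 and 1 below, against the same shares of all genes. Rgs4, Rgs3 and Rgs9, the most read, lay at 0.986, 0.965 and 1.01, while Rgs17 had 262 reads in the GR library and 207 in the control library (1.27, 1.05 to 1.53) and Rgs11 456 and 524 (0.873, 0.768 to 0.991). Downstream of Gq, 1 of 13 genes had an interval above 1 and 2 below, beside 10.3% and 8.38% of all genes. Itpr1, an inositol trisphosphate receptor of the endoplasmic reticulum, had 1885 reads in the GR library and 1649 in the control library (1.15, 1.07 to 1.23). Its relatives Itpr2 and Itpr3 had folds of 1.2 (0.980 to 1.48) and 0.867 (0.766 to 0.981). Dgkz, a diacylglycerol kinase, lay at 0.948 (0.90 to 0.999) and Prkca, protein kinase C alpha, at 0.962. With the GC trend removed, log2 folds went from -0.076 to -0.020 for Dgkz, from 0.197 to 0.194 for Itpr1 and from -0.207 to -0.158 for Itpr3.

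**Figure D5:**
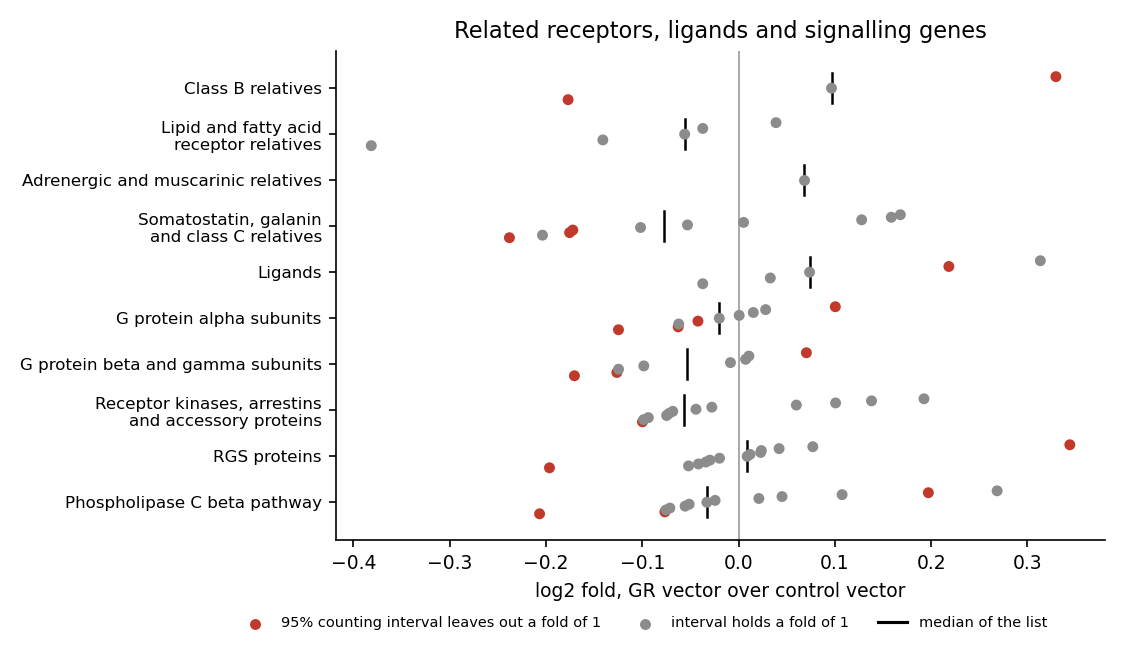
Log2 fold of the GR library over the control library for the 79 listed genes that averaged 50 or more reads, 1 row per list, with the list median (bar) and genes whose 95% counting interval leaves out a fold of 1 in red. Crhr1 and Rgs17 lie farthest to the right with such an interval and Sstr5 farthest to the left. The GC trend is left in.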

How the data were processed

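RNA sequencing of MIN6 cells gave 1 library per vector. The authors deposited a normalized signal, which is read counts per gene after scaling. Divided by 1 step for each library, 100% of values came out whole within 0.01 reads, so reads were recovered. The log2 fold change, p-value and adjusted p-value beside them are also those the authors deposited. An exact test run on these reads in edgeR 4.0.16 (TMM, dispersion preset at 0.04) gave p-values within 4.45e-08 of them. DESeq2 1.10.1 is named per the submitters' processing notes; for aligner, counting tool, strand handling and build the sources used here have no entry. Of the deposited gene identifiers, 21533 occur in GENCODE M21 (GRCm38), 97.0% with the same coordinates.

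Folds are ratios of recovered reads over library sizes scaled by TMM. Their 95% intervals are exact Clopper-Pearson ones (scipy 1.17.1) and cover counting error only. Level intervals are exact Poisson ones. RPKM used total reads and the deposited gene length, and the GC trend was a lowess fit with a span of 0.3 (statsmodels 0.14.6). The interval and exact test steps were run on simulated data as a check of the code. That check does not make the intervals cover spread between replicates. With 1 library per group no replicate test could be run. Receptors and lists were chosen with earlier results of these data known. All 10 receptors are named, and from each list the 3 most read genes and the highest and lowest folds among genes that averaged 50 or more reads. Gprc5b, S1pr4, Gcg, the smaller family members and the genes around Gipr were named beyond that, some after their values were seen. Depth limits the less read receptors most, and 0 columns of other samples were present.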

Additional observations from a re-analysis of the deposited data

How the results depend on the processing

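The folds of the 8 receptors were recomputed with total reads, DESeq2 size factors (DESeq2 1.42.0) or library sizes without the 100 most read genes, and with the GC trend removed. Each stayed inside its own 95% interval except that of Adra2a, which was 1.04 with the GC trend removed; its transcript is the richest in GC. The count of receptors whose interval left out 1 was 2, against 18.7% of all genes that averaged 50 or more reads. It was 1 with a 99% interval, against 9.24% of those genes. With DESeq2 size factors and without the 100 most read genes it was also 1, against 18.5% for each. Ffar1 was the receptor lost and Gipr was kept in all of these. No receptor passed a fold of 1.2 under any minimum of reads or scaling tried, or a fold of 1.5, and none passed the adjusted p with a preset dispersion of 0.01 or 0.16 or over genes that averaged 50 or more reads. Of all genes that averaged 50 or more reads, 0.866% reached a fold of 1.5. A fold of 1.2 was reached by 18.4% with a minimum mean of 10 reads, 5.04% with 100 and 37.5% with none. With the other scalings that share was 8.05% to 8.1%. The median of the ligand list was 0.07, and 0.22 with no minimum of reads, where genes of few reads enter. The class B median was 0.10, and -0.04 with no minimum; that of the beta and gamma subunits was -0.05, and -0.11 with no minimum.

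Levels moved with the gene length used, while the reads stayed the same and were not recounted on another gene model. With the longest transcript Glp1r had 70.4 RPKM in the GR library and 69.6 in the control library, Gipr 20.0 and 23.9, Adra2a 127 and 128, and Chrm3 5.00 and 4.83. With all exons in GENCODE M21 the values of Glp1r and Adra2a were the same as these. The count with no minimum and these M21 lengths were added after the data were seen. No paired analysis was possible because each vector has 1 library.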

Other observations

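Genes whose symbol is Gpr or Adgr with a number or letter were also taken, after the data were seen. The symbol alone was used, so not all of them need encode orphan or adhesion receptors. In all, 27 such genes averaged 50 or more reads. Of these, 10 lay above a log2 fold of 0 and 17 below, with a median of -0.03. The most read were the adhesion receptor genes Adgrl1, with 4086 reads in the GR library and 4036 in the control library, and Adgrg1 (GPR56), with 3873 and 3937. Gpr158 had 2223 reads in the GR library and 2085 in the control library (fold 1.07, 95% counting interval 1.01 to 1.14). A fold of 1.2 was reached by Gpr62 on the higher side, with 89 reads in the GR library and 63 in the control library (1.42, 1.01 to 1.99), and by Gpr63 on the lower side, with 52 and 73 (0.714, 0.491 to 1.03). Gpr158 and Gpr62 were the 2 of 27 whose interval left out 1, both on the higher side, against 10.3% of all genes at that depth on that side and 18.7% on either. For a fold of 1.2 the share of all genes was 7.99%.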
